A study of Mus musculus with 2 samples.

Results

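The genes of the RNA polymerases, the general transcription factors and the Mediator complex were compared between the liver of normal and of diabetic db/db mice. Members were all genes of the deposited table whose symbol starts with Polr1, Polr2, Polr3 or Polrm, with Gtf2 or Gtf3, or with Taf or Med followed by a number. This rule found 69 of the 8551 listed genes, namely 19 polymerase subunits, 9 general factors of RNA polymerase II, 2 genes of the TFII-I family, 7 general factors of RNA polymerase III, 12 TAFs and 20 Mediator subunits. The normal library was made from the liver of 9-week-old wild type male mice and the diabetic library from 9-week-old db/db male mice, whose leptin receptor does not work and which grow obese and diabetic. Both groups carry the label of a C57BL/6 background, and livers were taken about 3 h into the light phase. The study names more than 1 supplier of the mice and does not say which group came from which. Genotype and supplier may therefore not be told apart. There was 1 library per group, and whether it pooled the RNA of several mice is not stated in the sources used here. No difference below has a replicate check, and the leptin receptor gene itself was not analysed here.

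RNA polymerase II transcribes the protein-coding genes, while RNA polymerase I makes the large ribosomal RNA and RNA polymerase III makes transfer RNA and other short RNAs. At a protein-coding promoter the polymerase is loaded by general factors, among them TFIID, which consists of the TATA-binding protein and its associated factors (TAFs), and TFIIH, which opens the DNA. Mediator is a large complex of head, middle, tail and kinase modules that passes signals from activators bound to DNA, such as the nuclear receptors of hepatocytes, to the polymerase.

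The libraries hold digital gene expression tags, short sequences read next to a cut site of the enzyme DpnII (GATC). A value (TPM) is the tags of a gene scaled to the clean tags of its library and is not divided by the length of the gene, so that genes are compared here only with themselves between the libraries. The values rise in equal steps, and 1 step is 1 read. The members had 5 to 490 reads in the normal library (median 46) and 0 to 571 reads in the diabetic library (median 76), against medians of 71 and 111 reads over all listed genes. The fold change is diabetic over normal TPM, given on the log2 scale with a 95% Clopper-Pearson interval from the reads that covers counting error only. A gene passed when its ratio was at least 1.5-fold and its false discovery rate (FDR) was under 0.001, which is the definition of the study. The FDR came from an exact binomial test on the reads with adjustment over all listed genes, and this test compares the 2 libraries and not the conditions.

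To show what was read, the tag next to the last GATC site of a transcript was predicted from GENCODE M21 transcripts (GRCm38; the labels name the build mm9), as GATC in capitals and the 17 bases after it. All 69 members had such a site, 40 in the 3′ UTR and 29 in the coding sequence. The predicted tag occurred in no other gene for 67 of 69 members, and for 95.9% of the 8085 listed genes with a transcript. The exceptions were Taf9, whose tag is also found in Ak6, and Taf5l, whose tag is also found in Gm13316. The study sets reads that map to unique genes apart from reads that map to multiple genes, but does not state which of them entered the values. Reads of these pairs could therefore have been left out, split or joined. Since the cDNA was primed with random hexamers, reads next to other GATC sites are possible too, and a transcript of a member had a median of 7 sites. Tags of 8 members are shown, 7 that passed and Taf9 for its overlap.
Med1: GATCtcatggatgtggccctg
Med8: GATCtcagctccactgtgaat
Med22: GATCaggagccactgtagcct
Polr2b: GATCcgtatcaggttcatgtc
Polr2j: GATCatcattcgtgtgcagac
Gtf2f1: GATCctcaagcgcctcaaccc
Gtf2i: GATCaagcaggagccagaccc
Taf9: GATCcattgtactacaagtta
The Med8 tag lies in the 3′ UTR, in exon 7 of 7, at chr4:118414910-118414930 on the plus strand. The Med1 tag lies in the coding part of exon 17 of 17 at chr11:98155253-98155273 on the minus strand. The Med22 tag lies in the 3′ UTR at chr2:26905663-26905683 on the minus strand, and the Taf9 tag in the 3′ UTR at chr13:100655884-100655904 on the plus strand. The predicted tag of Polr2b lies in exon 24 of 25 at chr5:77348317-77348337 and that of Polr2j in exon 3 of 4 at chr5:136122155-136122175, both in the coding sequence and on the plus strand. The tags of Gtf2f1 at chr17:57003476-57003496 and Gtf2i at chr5:134239523-134239543 also lie in the coding sequence, on the minus strand. For 9 members, among them Med1, Med8, Med27 and Polr1d, the RefSeq-linked transcripts of the gene end in more than 1 last tag, so that the tag depends on the isoform.

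Over all members, 14 of 69 (20.3%) rose and 3 (4.35%) fell in the diabetic library, while 22.9% of all listed genes passed as higher and 8.19% as lower. By the fold change alone, 27 members (39.1%) were at least 1.5-fold higher and 6 (8.70%) at least 1.5-fold lower, against 34.4% and 15.3% of all listed genes. The median log2 fold change was 0.21 for the members and 0.25 for all listed genes. As a whole the members were therefore close to the background of the table. Under 4 other scalings between the libraries each log2 fold change is lowered by 0.25 to 0.31, and the median of the members then lay just below 0. Under trimmed mean of M values (TMM) scaling, 9 members passed as higher and 8 as lower. Of all listed genes, 14.6%, 14.9%, 13.3% and 14.3% passed as higher under sum, TMM, median-ratio and upper-quartile scaling, and 13.6%, 13.4%, 14.8% and 13.8% as lower. By the fold change alone, the shares were 23.7%, 24.0%, 21.9% and 23.4% higher and 23.9%, 23.6%, 25.6% and 24.3% lower. The same 10 members passed under the deposited and all 4 other scalings, 7 of them higher (Med1, Med22, Med23, Med27, Polr2b, Polr2j and Gtf2i) and 3 lower (Med8, Gtf2f1 and Taf15). Med6, Med14, Med21, Gtf2h4 and Polr1d passed as higher with the deposited values and under none of the 4 other scalings. Gtf3c5, Med29, Polr1c, Polr2f and Taf9 passed as lower under each of the 4 other scalings but not with the deposited values. The sign turned under at least 1 scaling for 13 members, none of which had passed. Since the study left out genes with a mean under 1 TPM, 7 members that were under 1 TPM in one of the libraries are listed only through the other, and such genes had to differ to be listed. Of these, Gtf2i, Med23 and Med8 passed, and without the 7 members 12 passed as higher and 2 as lower. The share of all listed genes without such genes was not counted, so these 2 counts have no background beside them.

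**Figure D1:**
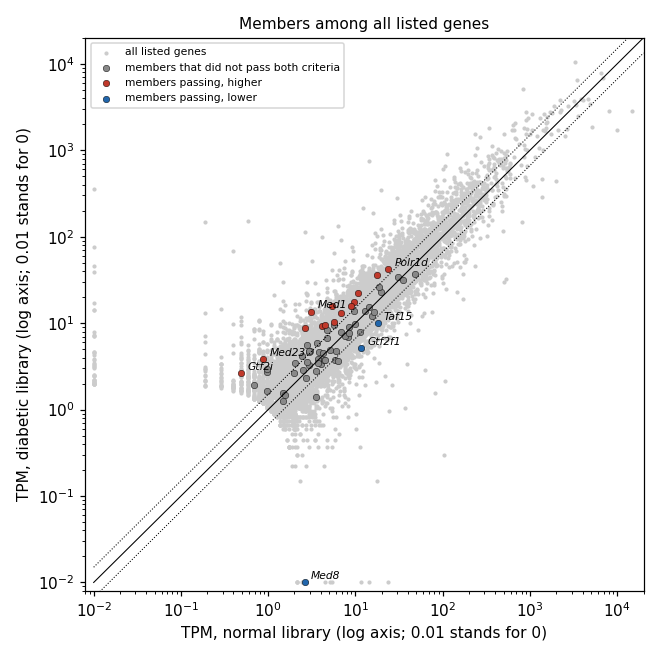
TPM in the diabetic library (vertical) against the normal library (horizontal) on log axes, with all 8551 listed genes in grey the members that passed in red (higher) or blue (lower) and the other members of the 69 in dark grey. The solid line marks equal values and the dotted lines 1.5-fold, and Med8 sits on the lower edge since it had no read in the diabetic library.

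**Figure D2:**
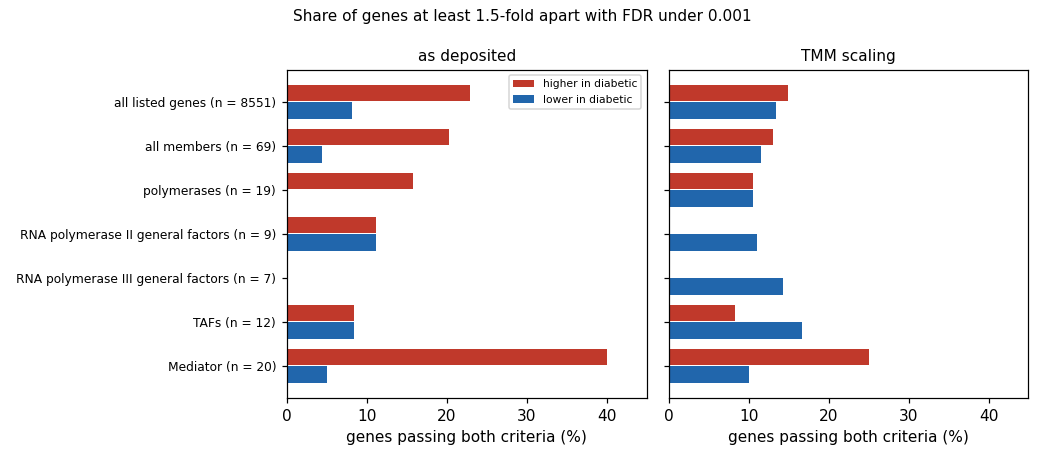
Percentage of genes that passed as higher (red) or lower (blue) in the diabetic library, for all listed genes, all members and 5 classes of members, with the deposited values on the left and under TMM scaling on the right. Of the 5 classes drawn, Mediator has the longest red bar in both panels, 8 and 5 of 20 subunits (the TFII-I family, with 1 of 2 genes passing as higher in both, is not drawn), and no polymerase subunit passed as lower with the deposited values.

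Mediator held 8 of the 14 members that rose. Of its 20 listed subunits, 8 (40.0%) passed as higher and 1 (5%) as lower, against 22.9% and 8.19% of all listed genes. Its median log2 fold change was 0.48, against 0.25 for all listed genes. Med23, which passed as higher, and Med8, which passed as lower, are each listed only through the library where they are high. Under TMM scaling 5 subunits (25%) passed as higher and 2 (10%) as lower, against 14.9% and 13.4% of all listed genes. The median of Mediator was then 0.23. The counts differed between the modules, and their difference was not tested.

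In the middle module, all 4 listed subunits were above 0. Med1, which binds nuclear receptors such as PPARα and the thyroid hormone receptor, was at 3.11 TPM (32 reads) in normal liver and 13.6 TPM (184 reads) in db/db liver. It rose 4.38-fold, a log2 fold change of 2.13 (95% interval, 1.58 to 2.72) with an exact test FDR of 3.5e-18. Med21, a small subunit of the hinge between the modules, went from 8.85 to 15.7 TPM and rose by 0.83 on the log2 scale (95% interval, 0.46 to 1.197). Under each of the 4 other scalings Med21 was below 1.5-fold. Med4 had 25 and 56 reads and a log2 fold change of 0.77 (95% interval, 0.07 to 1.51), and Med26, which takes part in elongation, had 20 and 36 reads and a log2 fold change of 0.45. Neither passed.

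Med14, the scaffold that joins head, middle and tail, was at 4.48 TPM in normal liver and 9.48 TPM in db/db liver. It rose 2.12-fold with 46 and 128 reads, a log2 fold change of 1.08 (95% interval, 0.59 to 1.60). Under TMM scaling its log2 fold change was 0.83, and it no longer passed.

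The head module, which contacts the polymerase, held the subunits that were farthest apart. Med8 had 27 reads in normal and 0 in db/db liver, where a count of 0 allows up to 3 reads or 0.222 TPM. It fell at least 11.8-fold when 3 reads were put in place of 0, a floor that leaves aside the counting error of the normal library. The 95% interval from both counts ended at -3.17 on the log2 scale, and Med8 is listed only through its level in normal liver. Med22 went the other way, from 5.35 TPM (55 reads) to 16.0 TPM (216 reads), a log2 fold change of 1.58 (95% interval, 1.15 to 2.03). Med30 rose from 9.53 to 17.5 TPM with a log2 fold change of 0.87 (95% interval, 0.53 to 1.23), and Med6 rose from 5.64 to 10.3 TPM with a log2 fold change of 0.87 (95% interval, 0.41 to 1.33). Med6 passed under none of the 4 other scalings, and Med30 passed under sum and TMM scaling but not under median-ratio or upper-quartile scaling. Med11 was at 18.5 and 26.3 TPM, the nearest of the head subunits to the fold threshold from below, with a log2 fold change of 0.51 (95% interval, 0.25 to 0.77). Med18, Med19 and Med20 had log2 fold changes of -0.08, 0.11 and -0.09, and the interval of each included 0.

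Of the 6 listed subunits of the tail module, which binds activators, 2 rose and 4 did not pass. Med23, which relays growth factor signals through the factor ELK1, had 9 reads in normal and 52 in db/db liver. Its log2 fold change was 2.13, with a wide 95% interval of 1.10 to 3.34, and it is listed only through its level in db/db liver. Med27 had 27 and 118 reads and rose 3.32-fold, a log2 fold change of 1.73 (95% interval, 1.12 to 2.39). Med15, a subunit that binds the lipogenic factor SREBP, had 9.83 TPM in normal and 9.85 TPM in db/db liver, and its interval of -0.38 to 0.39 on the log2 scale was centred on equal values. Med25 and Med16 were at log2 fold changes of -0.14 and -0.21. Med29 was at 6.32 and 3.63 TPM, a log2 fold change of -0.80 (95% interval, -1.37 to -0.24) with an exact test FDR of 0.0074, and it passed as lower under TMM scaling.

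Of the kinase module, which holds Mediator back from the polymerase, only Med13l belongs to the members. It was at 5.84 TPM in normal liver and 3.70 TPM in db/db liver, a log2 fold change of -0.66 (95% interval, -1.23 to -0.09) that did not pass. Its partner cyclin C (Ccnc), which is outside the rule, was at 9.34 and 21.1 TPM and rose, with a log2 fold change of 1.18 (95% interval, 0.84 to 1.52). Cdk19, listed as Cdc2l6, had 16 and 26 reads, and its interval of -0.65 to 1.303 included 0. Med12, Med13 and Cdk8 were not analysed here.

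**Figure D3:**
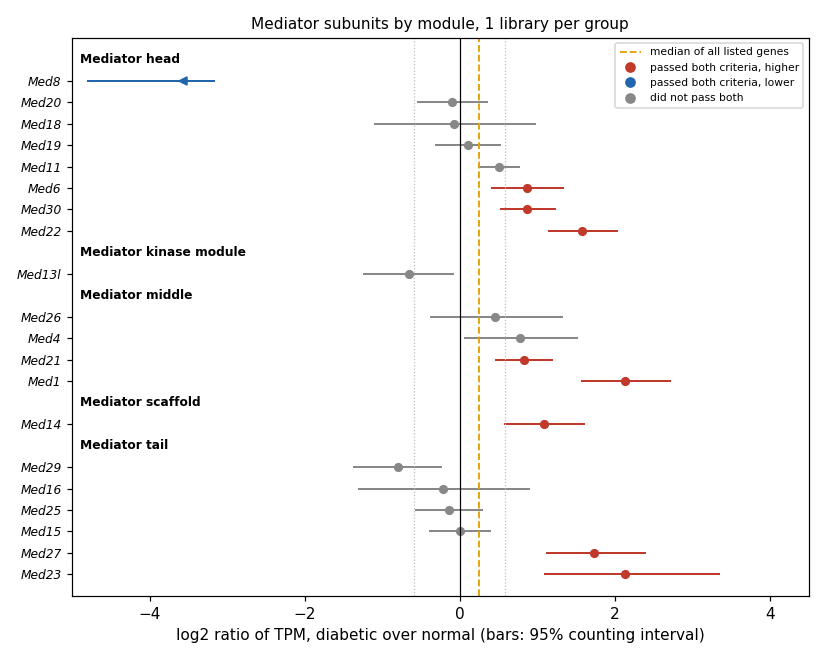
Log2 ratio of TPM, diabetic over normal, for the 20 listed Mediator subunits by module, with bars for the 95% counting interval and a dashed line at the median of all listed genes, 0.25. Med8 is drawn as a bound (arrowhead, its bar cut at the left edge), and Med1, Med23, Med27 and Med22 lie farthest to the right.

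All 4 listed subunits that belong to RNA polymerase II alone were at least 1.5-fold higher in the diabetic library, as were 34.4% of all listed genes. Of the 4 subunits 2 passed, and under each of the 4 other scalings only these 2 were at least 1.5-fold higher. Polr2b, the second largest subunit, which forms the active site together with the largest, was at 10.6 TPM (109 reads) in normal liver and 22.2 TPM (300 reads) in db/db liver. It rose 2.10-fold, a log2 fold change of 1.07 (95% interval, 0.75 to 1.40). Polr2j, which forms a dimer on which the polymerase is assembled, rose from 17.5 TPM (180 reads) to 35.7 TPM (482 reads), a log2 fold change of 1.03 (95% interval, 0.78 to 1.28). Both passed under all scalings. Polr2g and Polr2d, which form the stalk of the enzyme, had log2 fold changes of 0.76 (95% interval, 0.30 to 1.23) and 0.65 (95% interval, 0.01 to 1.32) with exact test FDRs of 0.0017 and 0.067. Under TMM scaling neither was 1.5-fold higher. The largest subunit gene, Polr2a, was not analysed here.

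Of the 3 listed subunits common to all nuclear polymerases, none passed. Polr2f, the member with the most reads in the normal library, was at 47.7 TPM (490 reads) there and at 37.4 TPM (505 reads) in db/db liver, a log2 fold change of -0.35 (95% interval, -0.53 to -0.17). Polr2l had a log2 fold change of -0.28 (95% interval, -0.88 to 0.34) and Polr2e one of 0.21 (95% interval, -0.05 to 0.47). Under TMM scaling Polr2f passed as lower and Polr2e was close to equal, at -0.04. The intervals of Polr2f and Polr2l lay below those of Polr2b and Polr2j.

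The pair of subunits that polymerases I and III share lay on opposite sides of equal values. Polr1d was at 23.8 TPM (245 reads) in normal liver and 42.3 TPM (571 reads) in db/db liver, where it had the most reads of all members. It rose 1.77-fold, a log2 fold change of 0.83 (95% interval, 0.61 to 1.05), and was just under 1.5-fold under TMM scaling, at 0.57. Polr1c, its partner in the assembly dimer, was at 15.7 and 12.1 TPM, a log2 fold change of -0.37 (95% interval, -0.69 to -0.04) that did not pass, while it passed as lower under TMM scaling. The intervals of both genes did not overlap. Polr1a, the catalytic subunit of polymerase I, had 41 and 46 reads and a log2 fold change of -0.23 (95% interval, -0.87 to 0.42).

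No subunit particular to RNA polymerase III passed. The catalytic subunits Polr3a and Polr3b had log2 fold changes of -0.24 (95% interval, -0.85 to 0.37) and 0.16 (95% interval, -0.54 to 0.88). Polr3g, which marks stem cells and dividing cells, was at 4.67 and 8.37 TPM with a log2 fold change of 0.84 (95% interval, 0.34 to 1.36) and an exact test FDR of 0.0015. Its paralog Polr3gl, the form of most adult tissues, was at 6.81 and 7.92 TPM with a log2 fold change of 0.22 (95% interval, -0.23 to 0.67). These intervals overlapped, and whether reads common to the paralogs were counted is not described in the sources used here. Polr3d was at 0.65 (95% interval, 0.002 to 1.33), and Polr3e and Polr3f were at 0.06 and -0.25. Polrmt, which transcribes the mitochondrial genome, was at 12.8 TPM in normal liver and 13.9 TPM in db/db liver, and its log2 fold change of 0.12 had a 95% interval of -0.21 to 0.45.

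Among the general factors of RNA polymerase II, 1 of 9 rose and 1 fell. Gtf2f1, the large subunit of TFIIF, which brings the polymerase to the promoter, was at 11.7 TPM (120 reads) in normal liver and 5.11 TPM (69 reads) in db/db liver. It fell by 1.19 on the log2 scale (95% interval, -1.64 to -0.75), with an exact test FDR of 1.1e-07. Its partner Gtf2f2 had 15 and 21 reads, too few to place it, with a 95% interval of -0.93 to 1.15. Gtf2h4, a TFIIH subunit that holds the helicase XPB, rose from 6.91 to 13.03 TPM, a log2 fold change of 0.92 (95% interval, 0.51 to 1.33). Under TMM scaling Gtf2h4 was at 0.66 and no longer passed. The other listed TFIIH subunits, Gtf2h1, Gtf2h2 and Gtf2h3, had log2 fold changes between -0.32 and 0.19, and their intervals included 0.

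Gtf2b (TFIIB), the bridge between promoter and polymerase, was at 31.0 TPM (319 reads) and 34.2 TPM (462 reads), a log2 fold change of 0.14 (95% interval, -0.07 to 0.35). Gtf2a2 of TFIIA was at 9.53 and 13.7 TPM, a log2 fold change of 0.52 (95% interval, 0.16 to 0.89), just below the fold threshold. Gtf2e2 of TFIIE had only 10 and 37 reads, and its log2 fold change of 1.498 (95% interval, 0.46 to 2.67) did not pass, with an exact test FDR of 0.0064. At 0.97 TPM in normal liver, Gtf2e2 is listed only through its level in db/db liver. The gene Gtf2i, whose product TFII-I acts as a regulator at chosen promoters rather than as a general factor, had 5 and 36 reads. It rose by 2.45 on the log2 scale with a 95% interval of 1.10 to 4.16, but it is listed only through its level in db/db liver. Its relative Gtf2ird2 was at 3.79 and 4.66 TPM with an interval of -0.30 to 0.91.

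None of the 7 listed TAFs of TFIID passed, and the median log2 fold change was -0.17. Taf11, which has a histone fold, was at 35.1 TPM (361 reads) in normal liver and 31.2 TPM (422 reads) in db/db liver, a log2 fold change of -0.17 (95% interval, -0.38 to 0.04). Taf2, which reads the initiator element, was at 16.3 and 13.6 TPM, a log2 fold change of -0.26 (95% interval, -0.57 to 0.05). Taf9 was at 11.3 and 7.85 TPM, a log2 fold change of -0.52 (95% interval, -0.92 to -0.13), and passed as lower under TMM scaling, but its predicted tag is shared with Ak6. Taf6, the histone-fold partner of Taf9, was at 3.60 and 5.92 TPM, a log2 fold change of 0.72 (95% interval, 0.14 to 1.32) that did not pass. Taf7, Taf8 and Taf12 had log2 fold changes of -0.30, 0.33 and 0.08, with intervals that included 0. The TATA-binding protein gene Tbp, which is outside the rule, was at 15.8 TPM (162 reads) and 21.9 TPM (296 reads), a log2 fold change of 0.48 (95% interval, 0.19 to 0.76), under 1.5-fold.

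Outside TFIID, 1 TAF rose and 1 fell. Taf5l, a TAF5 paralog of histone acetyltransferase complexes, was at 4.09 TPM in normal liver and 9.18 TPM in db/db liver and rose 2.24-fold, a log2 fold change of 1.17 (95% interval, 0.65 to 1.71). Under median-ratio scaling Taf5l no longer passed. All 3 listed TAFs of SL1, the factor that loads polymerase I on ribosomal DNA, were at least 1.5-fold higher, as were 34.4% of all listed genes. Taf1a was at 1.00, Taf1d at 0.77 and Taf1b at 0.70 on the log2 scale. With 21 to 30 reads in the normal library, none of them passed, and under each of the 4 other scalings only Taf1a was at least 1.5-fold higher. Taf15, an RNA-binding protein, fell from 18 TPM (185 reads) to 9.99 TPM (135 reads), a log2 fold change of -0.85 (95% interval, -1.18 to -0.52).

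The general factors of RNA polymerase III gave no gene that passed. Gtf3c1, the largest subunit of TFIIIC, which binds the promoter inside transfer RNA genes, was at 14.1 and 15.2 TPM with a log2 fold change of 0.11 (95% interval, -0.21 to 0.42). Gtf3c5, of the same complex, had 36 and 19 reads and a log2 fold change of -1.31 (95% interval, -2.20 to -0.48), with an exact test FDR of 0.0024, and passed as lower under TMM scaling. Gtf3c3 and Gtf3c4 were on the other side, at 1.61 and 1.498 on the log2 scale, from 10 and 7 reads in the normal library to 40 and 26 reads in the diabetic library. At 0.97 and 0.68 TPM in normal liver, both are listed only through their level in db/db liver. Gtf3c2 was at -0.25 and Gtf3c6, also listed only through its level in db/db liver, at 0.75, and the intervals of both included 0. Gtf3a, which serves the 5S ribosomal RNA genes, was at 4.77 and 6.74 TPM with an interval of -0.02 to 1.03.

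**Figure D4:**
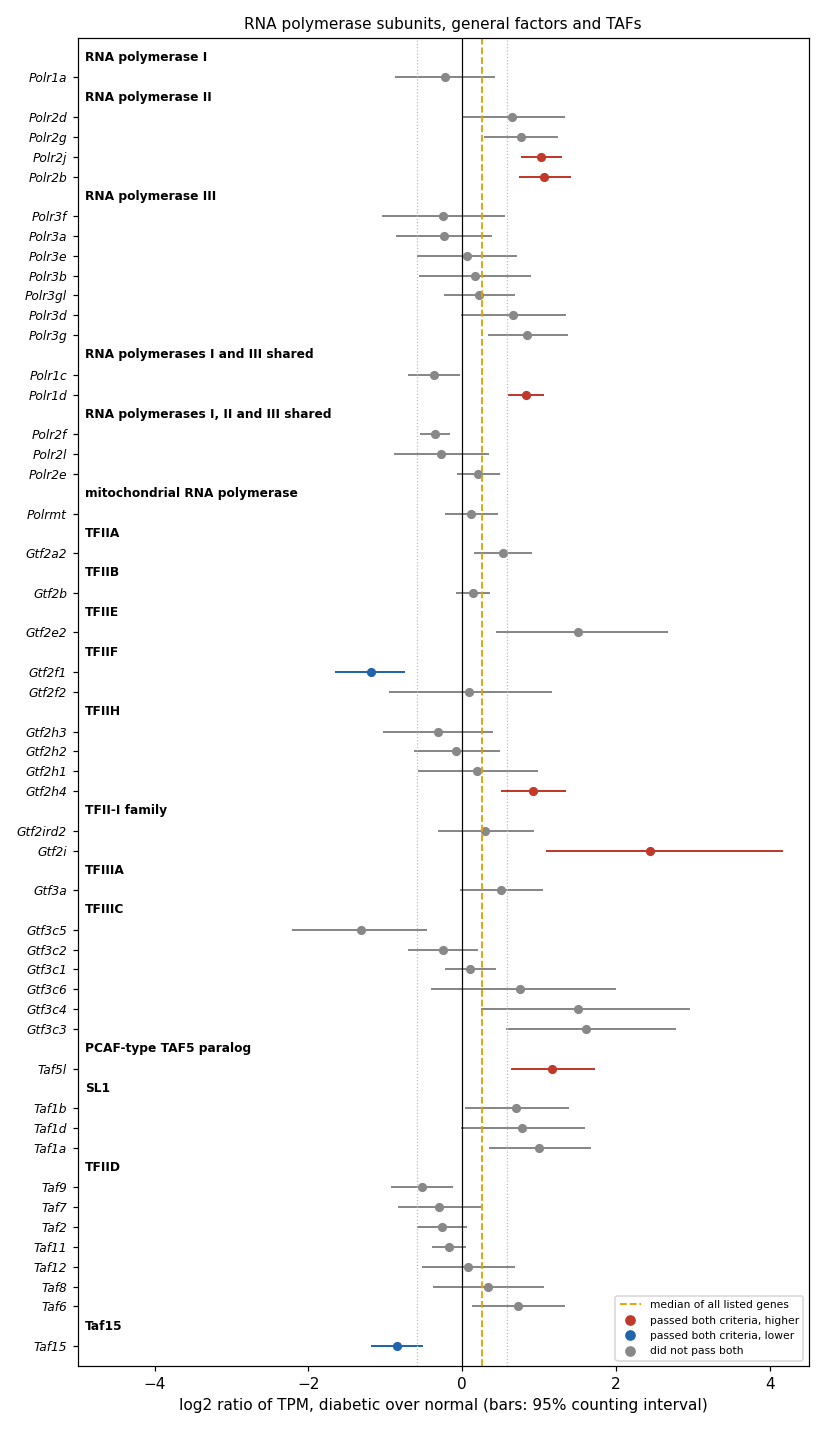
Log2 ratio of TPM, diabetic over normal, for 48 listed polymerase subunits, general factors and TAFs by complex, with bars for the 95% counting interval, dotted lines at 1.5-fold and a dashed line at the median of all listed genes. Polr2b, Polr2j, Polr1d, Gtf2h4, Gtf2i and Taf5l lie to the right in red, and Gtf2f1 and Taf15 to the left in blue.

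Other genes of general transcription were taken from a list of 65 genes outside the rule, of which 48 had a value. Of these, 12 (25%) passed as higher and 4 (8.33%) as lower, near the 22.9% and 8.19% of all listed genes, with a median log2 fold change of 0.14. The TFIIH helicase gene Ercc3 rose from 18.6 to 38.5 TPM, a log2 fold change of 1.05 (95% interval, 0.81 to 1.298), and Ccnh, the cyclin of the TFIIH kinase, rose from 7.10 to 13.1 TPM. Of the genes that start transcription by polymerase III, Brf2 and Snapc1 rose by 1.35 and 1.37 on the log2 scale. Maf1, a repressor of polymerase III, rose from 8.37 to 19.1 TPM. Of the 7 listed genes of this group, Maf1 included, these 3 were above 0 and 4 were below 0. The median log2 fold change of the group was -0.05. Rrn3, which makes polymerase I ready for initiation, fell from 10.8 TPM (111 reads) to 5.70 TPM (77 reads). Tfam, which packs and activates the mitochondrial genome, had 18 and 104 reads and rose by 2.14 on the log2 scale (95% interval, 1.41 to 2.95). Among the elongation genes, Supt5h, the NELF genes Th1l and Rdbp, Tceb2 and the phosphatase gene Ssu72 rose, while Supt6h, Leo1 and Tcea1 fell. The NELF genes Cobra1 and Whsc2 did not pass, at 0.02 and 0.07 on the log2 scale with intervals that included 0. Cdk9, the kinase that releases paused polymerase, was at 26.0 and 26.7 TPM with an interval of -0.20 to 0.27. Under TMM scaling, 7 of the 48 genes passed as higher and 8 as lower, and Brf2, Ccnh, Rdbp, Supt5h and Tceb2 no longer passed under any of the 4 other scalings.

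Promoters of the members were read from RefSeq windows (GRCm38.p6) of 250 bases before to 50 bases after a start, with 66 windows for 58 of the 69 members. The ETS core CCGGAAG, searched on both strands, was present in 42.4% of the windows of members, in 17.8% of the windows of listed genes and in 8.86% of all windows. CCAAT, the letters read by NF-Y, was present in 27.3%, 36.9% and 37.4% in the same order, and TATAAA in 10.6%, 7.55% and 13.6%. No window of a member held the searched NRF1 or YY1 motif, which were present in 1.97% and 1.99% of the windows of listed genes. Of the 17 members that passed, 14 had a window, and 5 of these genes had the ETS core. The windows of 3 of them are shown from 150 bases before to 30 bases after the start, as examples of promoters with the ETS core, with the searched motifs in capitals.
Polr2j: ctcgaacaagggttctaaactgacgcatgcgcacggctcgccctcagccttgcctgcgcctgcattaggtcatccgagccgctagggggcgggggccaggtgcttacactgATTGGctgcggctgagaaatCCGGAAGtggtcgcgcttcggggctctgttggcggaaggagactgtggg
Med6: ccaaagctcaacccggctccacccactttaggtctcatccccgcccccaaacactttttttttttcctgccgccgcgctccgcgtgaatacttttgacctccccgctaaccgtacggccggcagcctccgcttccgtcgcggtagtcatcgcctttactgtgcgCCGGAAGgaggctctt
Gtf2f1: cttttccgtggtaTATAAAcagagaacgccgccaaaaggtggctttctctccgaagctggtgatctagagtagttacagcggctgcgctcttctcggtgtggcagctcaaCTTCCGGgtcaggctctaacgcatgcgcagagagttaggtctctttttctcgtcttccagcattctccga
The Polr2j window is chr5:136116541-136116720 on the plus strand, the Med6 window chr12:81594979-81595158 on the minus strand, and the Gtf2f1 window chr17:57011259-57011438 on the minus strand. Polr2j and Med6 rose and Gtf2f1 fell, so the motif was found beside changes in both directions. A match of letters does not show that a factor binds there.

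By RefSeq symbols, 106 protein-coding mouse genes match the rule, and the 37 that are no members were not analysed here. Genes with a mean under 1 TPM were left out by the study, so a gene low in both libraries cannot be among the 69. Of the hepatocyte markers, Alb was at 6801 and 6912 TPM, Ttr at 257 and 239 TPM and Tat at 1763 and 1533 TPM, while Apob fell from 804 to 147 TPM. Of 10 Kupffer cell markers 8 were listed, with a summed level of 327 TPM in normal and 194 TPM in db/db liver. Of these markers, 4 passed as lower and 1 as higher. C1qa alone held 176 and 50.7 TPM of the sums, while Cd5l was at 64.7 and 62.9 TPM and C1qb rose from 38.1 to 57.8 TPM. The sums were 9625 and 8832 TPM for 4 of 6 hepatocyte markers, 116 and 105 TPM for 8 of 8 endothelial markers, and 111 and 154 TPM for 6 of 7 stellate cell markers. They were 61.5 and 107 TPM for 3 of 5 cholangiocyte markers, of which Spp1 alone held 57.2 and 103 TPM, 4.67 and 2.44 TPM for 1 of 6 lymphocyte markers, and 51.9 and 44.2 TPM for 1 of 3 erythroid markers. The part of these shifts in the ratios of the members was not tested, and in bulk liver fewer cells of a type and less RNA per cell cannot be told apart. Exons of 15 members overlap a protein-coding gene on either strand, among them Polr2b, Polr2j and Med21 with a gene on the opposite strand.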

How the data were processed

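Liver RNA of 1 normal and 1 diabetic library was measured with digital gene expression tags. The authors made cDNA from poly(A) RNA with random hexamers, cut it with DpnII, read it on an Illumina 1G and matched clean tags to RefSeq. They deposited RPM values (tags of a gene scaled to the clean tags, called TPM), rounded to 2 decimals, with 0.01 for no tag and genes under a mean of 1 TPM left out. The labels name the build mm9, and the aligner is not given in the sources used here. The number of sample columns left aside was 0.

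The value steps gave the reads, 0.0973 TPM (normal) and 0.0740 TPM (diabetic) per read, which correspond to 10278531 and 13508232 clean tags. Above the placeholder, 8513 of 8513 and 8536 of 8537 values were whole reads within 0.0051 TPM. A gene with 0 reads was set to 3 reads, and its ratio is a bound. Reads were compared by an exact binomial test (two-sided), adjusted by Benjamini-Hochberg over 8551 genes to give the FDR. Tags carry no molecular identifiers and may be copies, so it covers counting error only, and intervals are 95% Clopper-Pearson intervals. The test behind the study's FDR is not given in the sources used here.

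Members, complexes and gene lists were chosen with earlier results of these data known. Every member may be named, except 1 that enters the counts and is not reported here by name. Those with full values passed both criteria, are catalytic or scaffold subunits, or are extreme, highest in TPM or near the threshold within their complex. Partner genes are named where they passed, and Tbp, with Cdk19, Cdk9, Cobra1 and Whsc2 added after their values were seen. The alternatives were 4 scalings (by the sum over listed genes; TMM, trimming 30% of log ratios and 5% of abundances; median ratio over genes averaging 10 TPM or more; upper quartile), a pseudocount of 0.1 or 1 TPM, only genes averaging 5 TPM or more, a fold of 2, an FDR of 0.05 and leaving out Taf15, Gtf2i and Gtf2ird2. The recovery of reads, the calls by fold change and FDR, and the intervals were tested on simulated data. The scalings, predicted tags, overlaps and promoter motifs were not. All 69 members matched RefSeq (GRCm38.p6) by Entrez identifier. Software was scipy 1.17.1, pandas 2.3.3, numpy 2.4.6 and matplotlib 3.10.9 under Python 3.11.15.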

Additional observations from a re-analysis of the deposited data

How the results depend on the processing

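Of the 14 members that passed as higher and the 3 that passed as lower, the numbers were 9 and 8 under sum and TMM scaling, 7 and 8 under median-ratio scaling, and 8 and 8 under upper-quartile scaling. By the fold change alone, 27 members were higher, against 16, 17, 14 and 16 under the sum, TMM, median-ratio and upper-quartile scalings, and 6 were lower, against 11 under median-ratio and 10 under upper-quartile scaling. In the same order of scalings, the median log2 fold change of all members turned from 0.21 to -0.0494, -0.0422, -0.0957 and -0.0581. That of the polymerases turned from 0.16 to -0.101, -0.0934, -0.147 and -0.109, that of the general factors of RNA polymerase II from 0.14 to -0.120, -0.112, -0.166 and -0.128, and that of the TAFs from 0.21 to -0.0540, -0.0469, -0.100 and -0.0628. These scalings subtract the same amount from every log2 fold change, so the order of the members does not change.

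With a minimum mean of 5 TPM, which leaves fewer genes, 14 members were at least 1.5-fold higher and 2 lower, and the median of the TAFs was -0.28. The medians were then 0.85 for Mediator (0.48 over all its subunits), 0.49 for the polymerases and 0.11 for the general factors of RNA polymerase III (0.50 over all of them). With a fold of 2, 12 members were higher and 3 lower, and 9 higher members also had an FDR under 0.001. With an FDR of 0.05, 22 members passed as higher and 6 as lower. The other 49 counts and medians, these 3 included, stayed within 1.5 times the count or, for a median, between the medians of the members' interval ends. The shares of all listed genes at a minimum of 5 TPM, a fold of 2 or an FDR of 0.05 were not counted. The counts of members at these settings therefore have no background beside them.

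No paired analysis was possible because each group has 1 library, and leaving out a library leaves no comparison. Depth limits members with few reads: 3 members had under 10 reads in the normal library (Med23, Gtf2i and Gtf3c4), and their intervals span more than 2 units on the log2 scale. Other members also had intervals this wide, such as Gtf2e2 (0.46 to 2.67) and Gtf3c6 (-0.39 to 1.99). The interval of Med8, with 0 reads in the diabetic library, has no lower end. Variation between mice is not measured here.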
